A study of Homo sapiens with 12 samples.

Results

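The lysyl oxidase family comprises 5 genes, LOX, LOXL1, LOXL2, LOXL3 and LOXL4, of 34227 genes listed in either of the deposited tables (29657 for SCC15 and 31055 for SCC25). All 5 members were found by gene name in both tables. They were chosen by the gene family and selected on their normalized counts in squamocin-treated against DMSO-treated cells, so the response of the members to squamocin is described below without a test. SCC15 and SCC25 are established cell lines of oral squamous cell carcinoma, a head and neck squamous cell carcinoma (HNSCC). Each line, labelled WT, was treated for 24 h with squamocin at 10 µg/mL or with the solvent DMSO, and RNA was sequenced from 3 libraries per line and treatment, 12 in all. The labels call the treatment ACGs, for annonaceous acetogenins, a class of plant polyketides, and the compound's name and dose come from the description of the methods. Each line was cultured on its own as a model of the tumor cell, and the labels do not say that replicates came from separate cultures, so every p-value measures only the spread between these libraries.

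Lysyl oxidases are copper-dependent amine oxidases that turn lysine residues of collagen and elastin into aldehydes, which then form the crosslinks that stiffen the extracellular matrix. LOX and LOXL1 are made with a propeptide that proteases such as BMP1 remove outside the cell, whereas LOXL2, LOXL3 and LOXL4 carry scavenger receptor cysteine-rich domains in its place. LOX is a well-known target of the hypoxia-inducible factors, and LOXL2 and LOXL3 are known to act together with the transcription factor SNAI1 in the epithelial-mesenchymal transition of carcinoma cells.

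The libraries held between 16665563 and 22748845 reads assigned to genes. Replicate 3 of squamocin-treated SCC15 stood apart from the other libraries: its counts differed from those of replicates 1 and 2 with a chi-square per degree of freedom of 64.06 and 56.84, against 1.672 to 9.953 in the other 10 replicate pairs. Values that it moved by over 1.5 times or across 0 are therefore given with and without it for part of the genes. These are the members, the genes most like LOX or LOXL2, COL1A1, FN1, BMP1, ATP7A and the genes named for a change in SCC15. The SCC15 values of all other genes include it. The scaling of the deposited counts left larger totals in treated libraries, with a median of 20826159 normalized counts against 15511759 under DMSO in SCC15 and of 21182014 against 18272805 in SCC25. When all libraries were brought to equal totals instead, the median log2 fold change of all genes moved from 0.01 to -0.48 in SCC15 and from -0.01 to -0.22 in SCC25, and a member's value on both scales is given where its direction or size turns on this. Of 7 markers of squamous epithelium, all had a mean of at least 10 normalized counts in SCC25. In SCC15, 6 of the 7 did: under DMSO, KRT17 had 112298 normalized counts, KRT14 759, CDH1 525 and KRT6A 134, whereas the basal keratin KRT5 had 9.50, the adhesion molecule EPCAM 11.4 and the basal regulator TP63 17.5. The 7 markers summed to between 110681 and 116793 under DMSO and between 205514 and 356638 under squamocin in SCC15, and to between 24741 and 24876 and between 39498 and 41640.1 in SCC25. The SCC15 sum was mostly KRT17, with a mean of 260258 under squamocin. KRT14 was also higher there, at 1440, while KRT5, KRT6A, TP63, CDH1 and EPCAM had lower means than under DMSO. Among the SCC25 markers, KRT5 (4748 against 5627) and CDH1 (3789 against 5204) were lower under squamocin and the others were higher. Fibroblast markers summed to 136 to 163 normalized counts under DMSO and 79.8 to 107 under squamocin in SCC15, and to 209.8 to 218 and 189 to 192 in SCC25. Endothelial markers summed to 158 to 178 and 66.1 to 77.1 in SCC15, where CDH5 was at 0, and to 231 to 294 and 19.8 to 36.6 in SCC25. Leukocyte markers summed to 19.2 to 26.4 and 6.84 to 18.7 in SCC15, and to 22.6 to 34.2 and 15.3 to 27.8 in SCC25, where PTPRC was at 0. Because each line was cultured on its own, a marker's name does not mean that such cells were present. The part of these transcripts in the results below was not tested. In bulk RNA, fewer cells with a transcript and less of it per cell cannot be told apart.

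Coordinates are those of the deposited tables (GRCh38). LOX (ENSG00000113083) spans chr5:122063195-122078360 on the minus strand, LOXL1 (ENSG00000129038) chr15:73925989-73952137 on the plus strand, LOXL3 (ENSG00000115318) chr2:74532414-74555690 on the minus strand and LOXL4 (ENSG00000138131) chr10:98247690-98268250 on the minus strand; LOXL2 is placed further below.

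Promoter windows of 300 bases, from 250 before to 50 after the start, were taken from RefSeq (GRCh38.p14) and matched 4 of the 5 members, namely LOX, LOXL1, LOXL3 and LOXL4. The windows were searched on both strands for ACGTG, the core letters of a hypoxia response element, whose reverse complement CACGT overlaps it in some E-boxes. LOX held 4 matches, whose first bases lie 185, 116, 98 and 42 bases before the start, and LOXL1, LOXL3 (2 windows) and LOXL4 held 0. For LOX the window at the gene's own 5′ end was used. Its RefSeq start lies inside the LOX span given above, and only 1 of the 4 matches lies upstream of every annotated start. Of all 35116 windows, 21.4% held at least 1 match and 0.843% held 4 or more. The LOXL4 window was 85.3% G and C, more than 99.8% of all windows, whose median was 58.7%. The stretches upstream of every annotated start are printed for LOX, the member with most matches and the highest log2 fold change in SCC15, and for LOXL4, the member with the lowest in SCC25, 5′ to 3′ on the minus strand, with the 1 match to ACGTG in capitals. The LOX stretch is chr5:122078414-122078509 and the LOXL4 stretch is chr10:98268251-98268444.
LOX: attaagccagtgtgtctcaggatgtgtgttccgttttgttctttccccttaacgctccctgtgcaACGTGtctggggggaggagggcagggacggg
LOXL4: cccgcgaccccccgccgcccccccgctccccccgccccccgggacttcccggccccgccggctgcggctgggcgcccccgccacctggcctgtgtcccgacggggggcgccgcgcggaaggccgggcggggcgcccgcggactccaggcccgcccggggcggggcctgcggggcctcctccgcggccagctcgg
A match describes these letters and is not evidence of binding.

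LOX, the founding member and the main crosslinking enzyme of fibrillar collagen, was higher after squamocin in SCC15 and lower in SCC25. In SCC15 its normalized counts were 2091, 2135 and 2158 under DMSO and 4857, 4826 and 4494 under squamocin. In SCC25 they were 649, 719 and 646 under DMSO and 498, 491 and 496 under squamocin. The groups did not overlap in either line, and the squamocin libraries lay above all DMSO libraries in SCC15 and below all of them in SCC25. The SCC15 mean was 4726 ± 201 against 2128 ± 34.0 (SD, n = 3), a log2 fold change of 1.15 (SE 0.079, 95% interval 0.97 to 1.33) or 2.22-fold. With equal library totals this was 0.65, or 1.57-fold. The SCC25 mean was 495 ± 3.83 against 671 ± 41.1 (SD, n = 3), a log2 fold change of -0.44 (SE 0.066, 95% interval -0.58 to -0.29), and -0.64 with equal totals.

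LOXL2, which crosslinks collagen IV of basement membranes, followed the same opposite directions with a deeper drop in SCC25. The gene (ENSG00000134013) spans chr8:23297189-23425328 (GRCh38) on the minus strand. Its normalized counts in SCC15 were 7459, 7721 and 7778 under DMSO and 15179.7, 15761 and 12288 under squamocin, the last being the library that stood apart. In SCC25 they were 2236, 2308 and 2212 under DMSO and 765, 742 and 805 under squamocin. Neither line showed an overlap between treated and control libraries on this scale. The SCC15 mean was 14409.7 ± 1860.1 against 7653 ± 169.8 (SD, n = 3), a log2 fold change of 0.90 (SE 0.12, 95% interval 0.63 to 1.18) or 1.87-fold, and 1.02 without squamocin replicate 3. With equal library totals it was 0.41, or 1.33-fold. It then fell short of the threshold applied to all genes, which is no test of a member selected on this contrast. As RPM, which scales reads by the total of each library, squamocin replicates 1 and 2 of SCC15 had LOXL2 at 742 and 757 while replicate 3 had 499, which lies within the DMSO range of 481 to 503. The SCC25 mean was 771 ± 31.6 against 2252 ± 50.1 (SD, n = 3), a log2 fold change of -1.55 (SE 0.051, 95% interval -1.66 to -1.44), or 2.92-fold lower, and -1.75 with equal totals.

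LOXL4, a member much studied in head and neck carcinoma, had at least 742 normalized counts in DMSO-treated SCC25 and at most 10.3 in each library of the other 3 groups. In SCC25 its normalized counts were 788, 789.8 and 742 under DMSO and 3.81, 1.04 and 7.77 under squamocin, which correspond to 978, 878 and 838 reads against 3, 1 and 7 reads. The treated libraries of SCC25 thus held LOXL4 reads in the range of the SCC15 libraries, where 12, 13 and 8 reads under DMSO stood against 2, 0 and 2 under squamocin. The SCC25 mean was 4.21 ± 3.38 against 773 ± 27.3 (SD, n = 3), a log2 fold change of -7.45 (SE 0.39, 95% interval -8.30 to -6.61), and only 3 of the 16539 genes tested in SCC25 had a lower value. Because the treated counts were near 0, the value depends on the pseudocount and was -5.81 with a pseudocount of 10. The pooled reads were 2694 against 11, which after division by the library factors gave a DMSO-to-squamocin ratio of 186 (exact 95% interval 104 to 374, counting error only). In SCC15, LOXL4 did not reach the mean of 10 normalized counts needed for a fit, with 1.60 ± 1.39 against 9.17 ± 1.89 (SD, n = 3). Its pooled SCC15 reads were 33 under DMSO against 4 under squamocin, which after the same division gave a ratio of 5.86 (exact 95% interval 2.08 to 22.8).

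LOXL3, an enzyme of cartilage and muscle matrix, was low in both lines and lower after squamocin in each. Its normalized counts in SCC15 were 111, 114 and 122 under DMSO and 78.8, 62.7 and 72.2 under squamocin. In SCC25 they were 45.9, 57.6 and 50.5 under DMSO and 21.6, 21.8 and 16.7 under squamocin. Treated and control libraries did not overlap in either line. The means were 71.2 ± 8.11 against 116 ± 5.87 in SCC15 (SD, n = 3), a log2 fold change of -0.70 (SE 0.15, 95% interval -1.04 to -0.35), and -1.19 with equal totals. In SCC25 they were 20.03 ± 2.93 against 51.3 ± 5.86 (SD, n = 3), a log2 fold change of -1.32 (SE 0.23, 95% interval -1.82 to -0.82), which was -1.03 with a pseudocount of 10. LOXL3 shares 936 bases, 20.7% of its exonic length, with HTRA2, a mitochondrial protease, and 216 bases with DOK1, an adaptor of receptor signaling. HTRA2 fell in both lines, by 0.75 in SCC15 and by 1.48 in SCC25 on the log2 scale (limma, adjusted p = 0.0333 and 4.1e-07), as did DOK1, by 0.45 and by 1.39 (limma, adjusted p = 0.0492 and 2.97e-06). The strand used in counting is not given in the sources used here, so reads in the shared bases cannot be assigned to 1 of these genes.

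LOXL1, which acts mainly on elastic fibers, showed the smallest differences of the family. Its normalized counts in SCC15 were 75.1, 75.9 and 88.2 under DMSO and 80.0, 75.2 and 116 under squamocin. In SCC25 they were 81.4, 90.0 and 72.6 under DMSO and 61.0, 67.6 and 58.8 under squamocin. The groups overlapped in SCC15 and were apart in SCC25. The SCC15 means of 90.3 ± 22.1 and 79.7 ± 7.33 (SD, n = 3) gave a log2 fold change of 0.16 (SE 0.20, 95% interval -0.31 to 0.62), which turned to -0.035 without squamocin replicate 3 and to -0.34 with equal totals. The SCC25 means of 62.5 ± 4.56 and 81.3 ± 8.68 (SD, n = 3) gave -0.37 (SE 0.16, 95% interval -0.72 to -0.023). Limma and edgeR placed it past the threshold over all genes and DESeq2 did not, which is no test of a member selected on this contrast. LOXL1 shares 335 exonic bases, 9.21% of its length, with its antisense gene LOXL1-AS1, which fell by 0.68 in SCC15 (limma, adjusted p = 0.00526) and had a log2 fold change of 0.30 in SCC25 (limma, adjusted p = 0.0604).

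**Figure D1:**
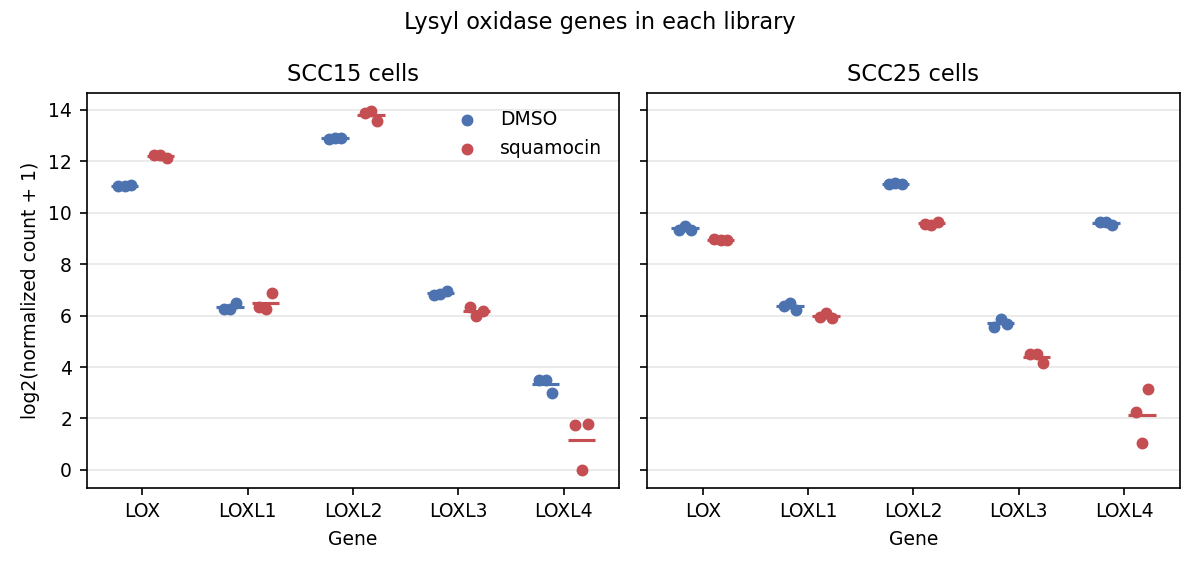
Normalized counts of the 5 lysyl oxidase genes in each library, on a log2(normalized count + 1) scale, in SCC15 (left) and SCC25 (right), with 1 point per library and a bar at the mean of 3. LOX and LOXL2 lie higher under squamocin in SCC15 and lower in SCC25, and LOXL4 drops from 742 to 789.8 normalized counts to between 1.04 and 7.77 in SCC25.

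In SCC15, 3 of the 4 members that passed the filter on low counts were past the threshold of the fit over all genes (limma, adjusted p under 0.05), 2 of them higher and 1 lower, where 61% of all 15902 genes tested were past it, 30.9% higher and 30% lower. In SCC25 all 5 members were past it and lower (4 with DESeq2, which did not call LOXL1), where 76.8% of all 16539 genes tested were past it, 38.3% higher and 38.5% lower. Treated and control libraries did not overlap for 4 of 5 members in SCC15, LOXL4 included although it did not pass the filter, and for 5 of 5 in SCC25. Among the genes that passed the filter, 70.6% did not overlap in SCC15 and 79% in SCC25. With equal library totals, 2 members were past the threshold in SCC15, LOX higher and LOXL3 lower, and 5 in SCC25, all lower. Since the members were selected on this contrast, nothing is read from these counts.

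**Figure D2:**
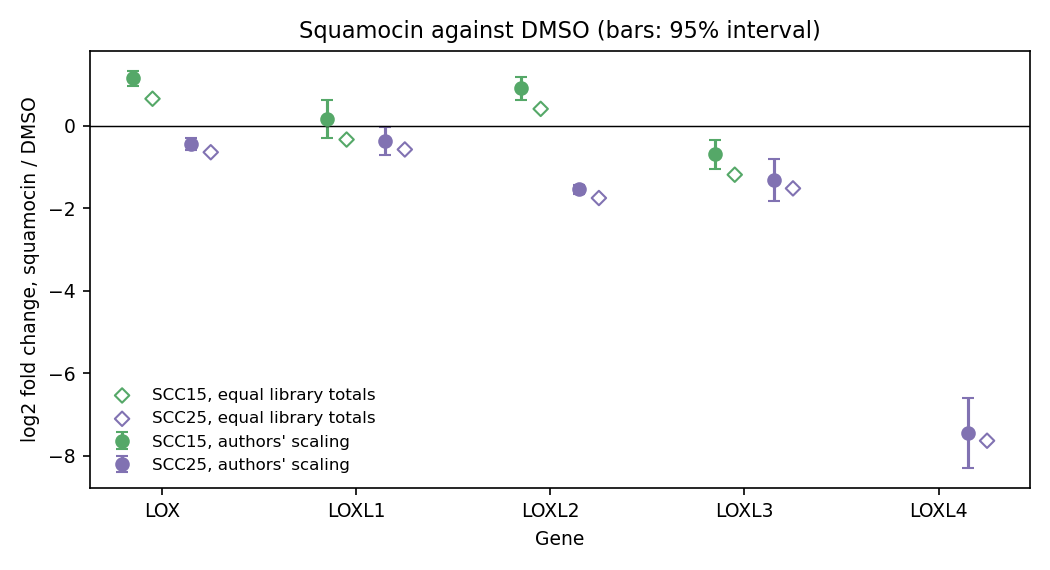
Log2 fold change of each lysyl oxidase gene, squamocin against DMSO, in SCC15 (green) and SCC25 (purple); filled points with bars give the authors' scaling with its 95% interval and open diamonds give equal library totals. LOXL4 in SCC25 lies at -7.45 and has no SCC15 value because it did not reach the filter, and LOXL1 in SCC15 has an interval from -0.31 to 0.62.

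To compare the members with one another, reads were expressed per kilobase of exonic length and relative to the total reads of the library (RPKM). In DMSO-treated SCC15 the order of levels was LOXL2 (82.5 ± 1.90 RPKM), LOX (24.5 ± 0.423), LOXL3 (1.65 ± 0.087), LOXL1 (1.41 ± 0.133) and LOXL4 (0.164 ± 0.0336; SD, n = 3). LOXL2 and LOX made up 74.8% and 22.3% of the family's RPKM there. LOXL3 and LOXL1 were the closest neighbors, with the lowest LOXL3 library at 1.58 and the highest LOXL1 library at 1.57 RPKM, so their ranges were apart by less than the spread of either. No neighbors in the order overlapped between libraries in any of the 4 groups.

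DMSO-treated SCC25 differed in its makeup, with LOXL4 in the second place. The order was LOXL2 (20.6 ± 0.459 RPKM), LOXL4 (11.8 ± 0.394), LOX (6.56 ± 0.405), LOXL1 (1.22 ± 0.130) and LOXL3 (0.621 ± 0.0718; SD, n = 3), and LOXL4 held 28.9% of the family's RPKM. The RPKM levels of the lines, which the authors' scaling does not enter, stand side by side without a test. LOX was 3.74-fold, LOXL2 4.01-fold and LOXL3 2.66-fold higher in SCC15 under DMSO, LOXL1 was 1.156-fold higher in SCC15, and LOXL4 was 71.6-fold higher in SCC25.

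After squamocin LOXL2 remained the highest member in both lines, and LOX was the second highest in both, up from the third place in SCC25. In SCC15, LOXL2 stood at 111 ± 24.2 and LOX at 38.8 ± 5.39 RPKM, and LOXL1 (1.12 ± 0.154) lay above LOXL3 (0.722 ± 0.113), the reverse of their order under DMSO. In SCC25, LOXL2 stood at 6.10 ± 0.303, LOX at 4.19 ± 0.0588, LOXL1 at 0.813 ± 0.0535, LOXL3 at 0.210 ± 0.0291 and LOXL4 at 0.0556 ± 0.0451 RPKM (SD, n = 3). The share of LOXL4 in the family thereby went from 28.9% to 0.482% and that of LOX from 16.1% to 36.9%. The summed RPKM of the family in SCC15 was 107.5, 111 and 112 under DMSO and 168, 169.5 and 118 under squamocin, with the library that stood apart lying closest to the controls. In SCC25 it was 40.4, 42.2 and 39.6 under DMSO and 11.3, 11.1 and 11.7 under squamocin.

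**Figure D3:**
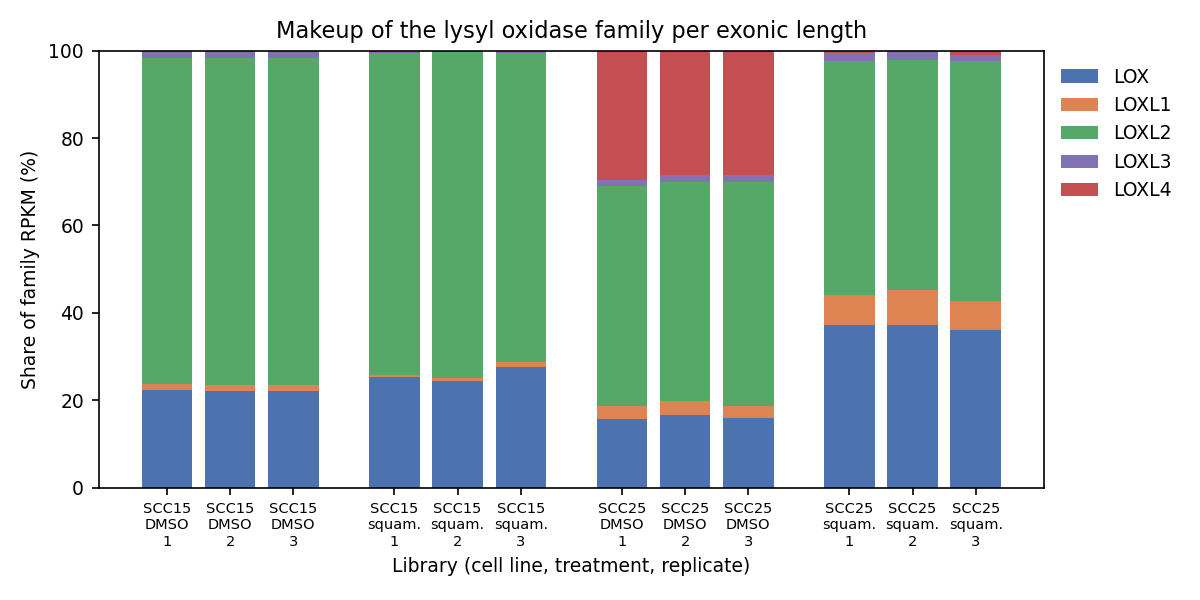
Share of each lysyl oxidase gene in the family's summed RPKM, in percent, for each of the 12 libraries; each bar is 1 library. LOXL2 is the largest part in every library, and LOXL4 makes up 28.9% on average in DMSO-treated SCC25 and 0.482% after squamocin.

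LOX and LOXL2, the members with a mean of at least 100 normalized counts in both lines, were compared with 9698 protein-coding genes by the root mean square difference of their log2 values over the 12 libraries, after each gene's mean in each line was subtracted. The genes most like LOX were P4HB, the disulfide isomerase subunit of collagen prolyl 4-hydroxylase (0.0958), and SRSF5, a splicing factor (0.109), against a median of 0.534 over all genes. The genes most like LOXL2 were PLOD1, a collagen lysyl hydroxylase (0.0738), and EIF3L, a translation initiation subunit (0.123), against a median of 0.730. These genes were picked for their likeness over the same libraries, so their values are a description. P4HB had log2 fold changes of 1.36 in SCC15 and -0.33 in SCC25, beside 1.15 and -0.44 for LOX. PLOD1 had 0.77 and -1.53, beside 0.90 and -1.55 for LOXL2. SRSF5 had 1.12 and -0.26, and EIF3L had 0.68 and -1.35. The SCC15 values were 0.27 for PLOD1 and 0.18 for EIF3L with equal library totals.

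The enzymes that modify collagen before lysyl oxidases crosslink it include the prolyl and lysyl hydroxylases, collagen galactosyltransferases and chaperones. In SCC15, 13 of 21 tested rose and 4 fell, with a median log2 fold change of 0.66 against 0.01 over all genes. In SCC25, 6 of 20 rose and 12 fell, with a median of -0.16 against -0.01. With equal library totals the SCC15 counts were 7 and 7, with a median of 0.16 against -0.48 over all genes, and the SCC25 counts were 2 and 14. The response differed between the lines for 16 of the 20 genes tested in both (limma contrast of the responses, adjusted p under 0.05), where 52.2% of 14454 genes tested in both lines differed. For 14 of the 16 the log2 fold change was higher in SCC15 than in SCC25, which does not mean a change of larger size. Of these 20 genes, 8 rose in SCC15 and fell in SCC25, as the values of LOX and LOXL2 did, while 5.44% of all 14454 genes were called in these directions: P4HA1, P4HB, PLOD1, PLOD3, P3H3, PPIB, SERPINH1 and COLGALT1, a list named after the values were seen. PLOD3 and SERPINH1 fell in SCC25 by only 0.14 and 0.13 (limma, adjusted p = 0.0466 and 0.0459), and their treated and control libraries overlapped there. Using equal library totals, 5 of the 20 were called higher in SCC15 and lower in SCC25, against 2.29% of all genes. P4HA1, PLOD1, SERPINH1 and COLGALT1 were then no longer called higher in SCC15 (limma, adjusted p between 0.0761 and 0.102). P4HB had 37465 ± 967 normalized counts under squamocin against 14563 ± 109 under DMSO in that line (SD, n = 3). PPIB, the cyclophilin of the collagen prolyl 3-hydroxylation complex, rose by 1.28 in SCC15 and fell by 0.41 in SCC25 (limma, adjusted p = 0.000423 and 6.6e-06).

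Other genes of that list moved differently. SEC23A, a coat protein for procollagen export, rose in both lines, by 0.76 in SCC15 and 1.07 in SCC25 (limma, adjusted p = 0.000247 and 5.97e-10), the SCC15 call being lost with equal totals at 0.26 (limma, adjusted p = 0.0565). FKBP14, an isomerase of the endoplasmic reticulum, rose by 0.62 in SCC25 (limma, adjusted p = 1.09e-05) and had a value of 0.11 in SCC15 (limma, adjusted p = 0.366), which turned to -0.39 and was called with equal totals (limma, adjusted p = 0.00524). TGM2, a transglutaminase that crosslinks matrix through another chemistry, fell by 1.38 in SCC25 (limma, adjusted p = 6.31e-11) and had -0.17 in SCC15 (limma, adjusted p = 0.148), called at -0.67 with equal totals (limma, adjusted p = 0.00207). PLOD2, the telopeptide lysyl hydroxylase, fell by 0.24 in SCC15 (limma, adjusted p = 0.0429) and was called at -0.18 in SCC25 (limma, adjusted p = 0.0105). The SCC15 call was lost without squamocin replicate 1 or 2 or any 1 DMSO replicate (limma, adjusted p between 0.1003 and 0.145). It held at -0.27 without squamocin replicate 3 and at -0.74 with equal totals (limma, adjusted p = 2.99e-06 and 0.00022). MIA3, a receptor for procollagen export, fell by 0.32 in SCC15 (limma, adjusted p = 0.0437), a call that was lost without squamocin replicate 2 or any 1 DMSO replicate (limma, adjusted p between 0.0595 and 0.135) and that stood at -0.20 without squamocin replicate 3.

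Among the substrates of the family, collagens and proteins of elastic fibers, 7 of 17 tested rose and 6 fell in SCC15, and 4 of 20 rose and 13 fell in SCC25. The medians were -0.053 and -0.63 on the log2 scale, against 0.01 and -0.01 over all genes, and with equal totals the counts were 2 and 7 in SCC15 and 4 and 14 in SCC25. COL6A2, a chain of collagen VI, rose by 1.35 in SCC15 (10098 ± 630.4 against 3962 ± 188 normalized counts, SD, n = 3; limma, adjusted p = 4e-05) and fell by 0.16 in SCC25 (limma, adjusted p = 0.0353). Its treated and control libraries overlapped in SCC25. COL1A1, the main chain of collagen I, rose by 0.70 in SCC25 (limma, adjusted p = 1.62e-06) and had a value of -0.19 in SCC15 (limma, adjusted p = 0.437), which turned to 0.032 without squamocin replicate 3 (limma, adjusted p = 0.819) and was -0.68 and called with equal totals (limma, adjusted p = 0.0466). COL3A1, the chain of collagen III, fell by 0.78 in SCC15 (limma, adjusted p = 0.000554). The latent TGF-beta binding proteins, which sit on elastic microfibrils, differed among themselves. LTBP4 rose in both lines, by 1.02 and 0.99 (limma, adjusted p = 9.74e-05 and 9.83e-09), and LTBP1 fell in both, with -0.69 and -0.63 (limma, adjusted p = 0.00136 and 0.00425). LTBP2 fell by 1.97 in SCC25 (limma, adjusted p = 2.99e-09) and had -0.053 in SCC15 (limma, adjusted p = 0.830). LTBP3 fell by 1.36 in SCC25 (limma, adjusted p = 3.01e-10) and rose by 0.55 in SCC15 (limma, adjusted p = 0.00272), where the call was lost with equal totals at 0.057 (limma, adjusted p = 0.566). ELN, which encodes elastin, did not reach the filter on low counts in either line.

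The proteases and copper carriers that lysyl oxidases need gave 6 genes higher and 3 lower of 14 in SCC15 and 5 higher and 8 lower of 16 in SCC25, with medians of 0.31 and -0.27 (3 and 5, and 3 and 9, with equal totals). ATP7A, the pump that loads copper into lysyl oxidases in the Golgi, fell in both lines, by 1.497 in SCC15 (323 ± 23.2 against 914 ± 47.8 normalized counts, SD, n = 3) and by 1.40 in SCC25 (81.3 ± 1.95 against 217 ± 13.6, SD, n = 3; limma, adjusted p = 3.17e-05 and 1.88e-07). Its paralog ATP7B fell by 0.69 in SCC15 (limma, adjusted p = 0.0222), a call lost without DMSO replicate 1 or 3 (limma, adjusted p = 0.0762 and 0.0772), and the value was -0.45 without squamocin replicate 3. The copper chaperones ATOX1, which serves ATP7A, and COX17, which serves mitochondria, rose in both lines. ATOX1 rose by 1.09 and 0.68 (limma, adjusted p = 0.00731 and 2.47e-06) and COX17 by 1.30 and 1.47 (limma, adjusted p = 0.00343 and 9.13e-11). Without squamocin replicate 3 the SCC15 values were 0.76 for ATOX1 and 0.97 for COX17. BMP1, which cleaves the LOX propeptide, fell by 0.43 in SCC25 (limma, adjusted p = 0.000214) and had a value of 0.20 in SCC15 (limma, adjusted p = 0.0966), which was 0.27 and called without squamocin replicate 3 (limma, adjusted p = 1.01e-05) and turned to -0.30 with equal totals (limma, adjusted p = 0.0883). Its relative TLL1 fell by 0.89 in SCC25 (limma, adjusted p = 2.63e-05). FN1, whose product fibronectin binds LOX, fell by 0.60 in SCC25 (limma, adjusted p = 1.91e-07), and had a value of -0.41 in SCC15 (limma, adjusted p = 0.144), which was called without squamocin replicate 3 at -0.16 (limma, adjusted p = 0.00199) and with equal totals at -0.91 (limma, adjusted p = 0.019).

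Proteins that organise the matrix gave 1 gene higher and 2 lower of 13 in SCC15 and 1 higher and 11 lower of 13 in SCC25, with medians of 0.055 and -0.88 (1 and 5, and 1 and 12, with equal totals). TGFBI, an adhesion protein, rose by 1.15 in SCC15 (limma, adjusted p = 6.3e-05) and fell by 2.71 in SCC25 (limma, adjusted p = 1.22e-12). HSPG2, which encodes perlecan of basement membranes, fell by 2.98 in SCC25 (2948 ± 917 against 22525 ± 482 normalized counts, SD, n = 3; limma, adjusted p = 1.7e-09), and MATN2, a filament-forming adaptor, by 2.75 (limma, adjusted p = 5.26e-11). In SCC15 neither was called, at -0.49 and 0.072 (limma, adjusted p = 0.399 and 0.631), but MATN2 was called at -0.42 with equal totals (limma, adjusted p = 0.0478). HSPG2 had 7435 ± 4193 normalized counts under squamocin in SCC15 against 8885 ± 541 under DMSO (SD, n = 3). Its treated and control libraries overlapped there and the SE was 0.48, so its SCC15 direction was not resolved. THBS1, a matricellular protein, went the other way, falling by 0.43 in SCC15 (limma, adjusted p = 0.02) and rising by 0.67 in SCC25 (limma, adjusted p = 5.57e-07); the SCC15 call was lost without DMSO replicate 1 or 2 (limma, adjusted p = 0.0565 and 0.0832). DCN, a small proteoglycan and also a fibroblast marker, fell by 0.76 in SCC15 (limma, adjusted p = 0.00678).

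Regulators of the lysyl oxidase genes gave 9 higher and 7 lower of 20 in SCC15 and 11 higher and 8 lower of 20 in SCC25, with medians of 0.26 and 0.21 (4 and 10, and 9 and 9, with equal totals). SNAI1, the partner of LOXL2, rose by 1.13 in SCC15 and by 0.58 in SCC25 (limma, adjusted p = 0.000128 and 0.000294). TWIST1, another transcription factor of the epithelial-mesenchymal transition, rose by 1.54 and 1.59 (limma, adjusted p = 0.000121 and 1.96e-09), and SMAD4, a mediator of TGF-beta signaling, by 0.38 and 1.31 (limma, adjusted p = 0.00751 and 8.33e-08). The SCC15 value of SMAD4 turned to -0.12 with equal totals (limma, adjusted p = 0.311). TGFB2, a TGF-beta ligand, fell by 1.09 and by 1.76 (limma, adjusted p = 0.000598 and 4.52e-07). The prolyl hydroxylases that mark hypoxia-inducible factors for degradation were all called lower in SCC25 and differed in direction in SCC15. EGLN1, named after its values were seen, had log2 fold changes of -0.37 in SCC15 and -0.35 in SCC25 (limma, adjusted p = 0.00698 and 0.000693). EGLN3 fell in both lines, with log2 fold changes of -0.98 and -2.62 (limma, adjusted p = 0.00315 and 2.48e-11), while EGLN2 rose by 0.87 in SCC15 and fell by 0.57 in SCC25 (limma, adjusted p = 0.00892 and 0.00708), the SCC15 call being lost with equal totals at 0.38 (limma, adjusted p = 0.253). HIF1A and EPAS1, which encode the factors themselves and were named after their values were seen, had log2 fold changes of 0.15 and -0.014 in SCC15 (limma, adjusted p = 0.250 and 0.923) and rose by 0.13 and 0.30 in SCC25 (limma, adjusted p = 0.00626 and 3.42e-05). With equal totals both were called lower in SCC15, at -0.35 and -0.51 (limma, adjusted p = 0.0424 and 0.0271), and neither was called in SCC25, at -0.081 and 0.092 (limma, adjusted p = 0.0665 and 0.0728).

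Of the other copper amine oxidases, which share the cofactor metal but not the matrix role, 1 was tested in SCC15 and not called, and 3 were tested in SCC25, of which 2 rose and 1 fell. Over all lists, 79 genes were tested in both lines and the response of 53 differed between them, where 52.2% of all 14454 genes tested in both differed. The log2 fold change was higher in SCC15 for 41 of these and lower for 12. In all, 17 rose in both lines, 13 fell in both, 15 rose in SCC15 and fell in SCC25, and 3 did the opposite. Of all 14454 genes, 5.44% were called higher in SCC15 and lower in SCC25. The share over all genes is not given for the other directions, so nothing is read from those counts.

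**Figure D4:**
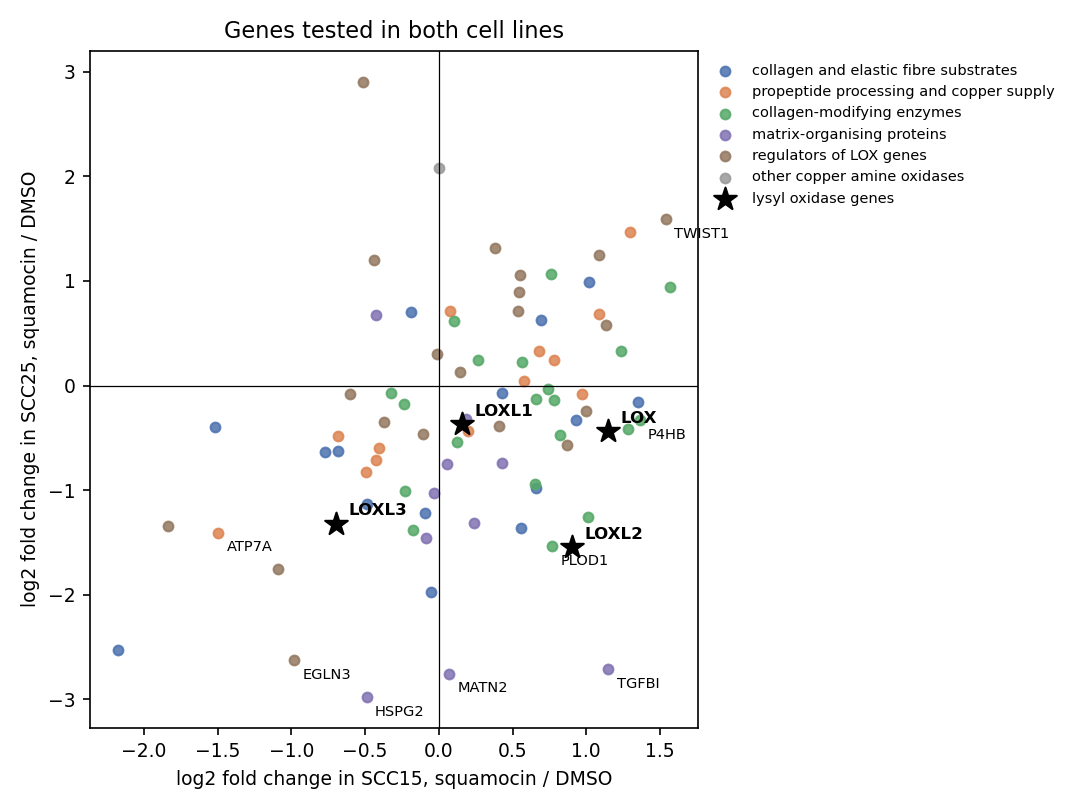
Log2 fold change, squamocin against DMSO, in SCC15 (x axis) and SCC25 (y axis) for the 79 listed genes tested in both lines, colored by list, and for the 4 lysyl oxidase genes tested in both (stars). LOX and LOXL2 lie in the lower right quadrant beside P4HB and PLOD1, and LOXL3 lies in the lower left with ATP7A and EGLN3.

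LOXL2 shares 178 exonic bases with its antisense gene LOXL2-AS1, which had log2 fold changes of -0.11 in SCC15 and -0.63 in SCC25 (limma, adjusted p = 0.879 and 0.195), and LOXL4 shares 152 with the antisense gene ENSG00000230928, which had 10.2 ± 10.02 normalized counts under DMSO in SCC25 (SD, n = 3) and 0 under squamocin. The nearest tested protein-coding genes on either side were read for each member. R3HCC1L, 2.79 kb from LOXL4, had a log2 fold change of 0.10 in SCC25 (limma, adjusted p = 0.329), and PYROXD2, 115 kb away on the other side, had -0.13 (limma, adjusted p = 0.331), beside -7.45 for LOXL4, and with equal totals PYROXD2 was called at -0.33 (limma, adjusted p = 0.0181). In SCC15, R3HCC1L fell by 0.76 (limma, adjusted p = 0.000484). STOML1, a neighbor of LOXL1, was called at -1.01 in SCC15 and -0.36 in SCC25 with equal totals (limma, adjusted p = 0.00025 and 0.00346). ENTPD4, a nucleotidase gene that shares 120 exonic bases with LOXL2, rose by 0.62 in SCC15 (limma, adjusted p = 0.0131) and had -0.025 in SCC25 (limma, adjusted p = 0.650), but with equal totals it was not called in SCC15, at 0.13, and was called at -0.23 in SCC25 (limma, adjusted p = 0.636 and 0.000655). R3HCC1, 0.910 kb from LOXL2 on the other side, had 0.11 in SCC15 (limma, adjusted p = 0.577) and fell by 0.47 in SCC25 (limma, adjusted p = 0.000492), and was called at -0.39 in SCC15 with equal totals (limma, adjusted p = 0.0156). SRFBP1, which shares 138 exonic bases or 2.47% of the length of LOX, had 0.18 in SCC15 (limma, adjusted p = 0.337), and -0.32 with equal totals (limma, adjusted p = 0.0764). It rose by 0.77 in SCC25 (limma, adjusted p = 1.01e-05), where LOX was lower. SNCAIP, 233 kb from LOX on the other side, had -1.78 in SCC15 and -0.87 in SCC25 (limma, adjusted p = 0.000792 and 9.95e-06). Beside LOXL1, CD276 had -0.0098 in SCC15 and 0.17 in SCC25 (limma, adjusted p = 0.936 and 0.0166). STOML1, on its other side, had -0.52 and -0.15 (limma, adjusted p = 0.0107 and 0.157). With equal totals CD276 was called only in SCC15, at -0.51 (limma, adjusted p = 0.00138).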

How the data were processed

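RNA was sequenced from 12 libraries, 3 per cell line and treatment. Each deposited signal value is a read count per gene that the authors made with HISAT2 (2.0.5) and featureCounts (1.5.0-p3) on GRCh38, per the labels, and scaled within each line; the strand setting is not given in the sources used here. The SCC25 columns are named FPKM, but the values times a library factor gave whole reads (100% within 0.01), as did those of SCC15, so they are scaled counts. The authors' group means, fold changes and p-values were not used.

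Within each line, log2(normalized count + 1) was fitted with limma (3.58.1; eBayes with a trend, two-sided, Benjamini-Hochberg over all genes with a mean of at least 10, threshold 0.05); the responses of both lines were contrasted over 12 libraries and all genes tested in both, and read for named and listed genes, not for members. The fits were tried on simulated counts with a constant dispersion, few changed genes and no outlying library. That trial therefore does not cover data with changes this wide or a library that stands apart. Equal library totals, edgeR (4.0.16) and, on the same whole reads, DESeq2 (1.42.0) served as alternatives, beside other filters and pseudocounts. RPKM used GENCODE 44 exonic lengths, which 33962 of 34227 genes had. Intervals on pooled reads describe counting error alone, as molecules were not tagged.

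The members, gene lists and tests were chosen with earlier results of these data known. Named genes are the members; COL1A1, ELN, FN1, BMP1 and ATP7A; per list and line the 2 largest rises and 2 largest falls among called genes with a mean of at least 100; the 2 genes most like each member with a mean of at least 100 in both lines; and genes overlapping a member.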

Additional observations from a re-analysis of the deposited data

Results flagged for a closer look

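LOX and LOXL2 moved in opposite directions in the 2 cell lines: on the authors' scaling every squamocin library lay above every DMSO library in SCC15 and below every one in SCC25. As RPM, squamocin replicate 3 of SCC15 had LOXL2 at 499, within the DMSO range of 481 to 503, and the SCC15 value of LOXL2 was 0.41 and not called with equal totals. The log2 fold changes were 1.15 and -0.44 for LOX and 0.90 and -1.55 for LOXL2. Neither the responses nor the difference between the lines were tested for these members, since they were selected on this response.

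Of 35 other named genes 32 were tested in both lines, and 22 of these responded differently by the limma contrast of the responses (adjusted p of at most 0.0104), beside 52.2% of all genes tested in both. The log2 fold change was higher in SCC15 for 17 of the 22 and lower for 5. Most were named for a large change in 1 line, and P4HB, SRSF5, PLOD1 and EIF3L for their likeness to LOX or LOXL2, so the count is a description and supports nothing. The differences in log2 fold change, SCC15 minus SCC25, were 3.86 for TGFBI, 2.83 for MATN2, 2.49 for HSPG2, 2.30 for PLOD1, 2.03 for EIF3L, 1.92 for LTBP2, 1.91 for LTBP3, 1.70 for PPIB, 1.69 for P4HB, 1.64 for EGLN3, 1.51 for COL6A2, 1.44 for EGLN2, 1.39 for SRSF5, 1.21 for TGM2, 0.67 for TGFB2, 0.63 for BMP1 and 0.55 for SNAI1. They were -0.31 for SEC23A, -0.51 for FKBP14, -0.89 for COL1A1, -0.93 for SMAD4 and -1.10 for THBS1. With equal library totals the difference was no longer called for BMP1, SNAI1 and TGFB2 (limma, adjusted p = 0.0922, 0.0644 and 0.209).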

How the results depend on the processing

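Scaling to equal library totals moved most values. In SCC15 the genes called became 2357 higher and 8033 lower, against 4921 and 4773, and listed genes became 17 higher and 34 lower, against 36 and 22. The SCC15 log2 fold changes became 0.65 for LOX, -0.34 for LOXL1, 0.41 for LOXL2 and -1.19 for LOXL3, and in SCC25 -0.64 for LOX, -0.58 for LOXL1 and -1.75 for LOXL2. With edgeR LOX in SCC15 was 1.08, and with a pseudocount of 10 LOXL3 and LOXL4 in SCC25 were -1.03 and -5.81. DESeq2 did not place LOXL1 in SCC25 past the threshold over all genes, which is no test of this member. Of the alternative values, 260 of the members' and summary results stayed within their spread or within 1.5 times the count, and 14 moved. Depth limited LOXL4, with 4 pooled reads in treated SCC15 and 11 in treated SCC25. The replicate numbers did not pair the samples (correlations of same-numbered libraries between -0.051 and 0.0078). With the replicate number as a block, 4665 genes were higher and 4451 lower in SCC15, and 6294 and 6317 in SCC25; the fold changes were the same by construction, 7089 genes differed between the lines, and the SCC15 calls of MIA3 and PLOD2 were lost.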
